A study of Mus musculus with 2 samples.

Results

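The 10 genes described here, Mcl1, Bcl2, Bcl2l1, Bax, Bak1, Bcl2l11, Bad, Bid, Bbc3 and Bcl2l15, belong to the Bcl2 family, which decides whether mitochondria release the factors that start apoptosis. They were chosen by symbol among the 27998 genes counted, and each symbol matched 1 gene. All 10 had at least 50 unique molecular identifiers (UMIs, 1 per captured mRNA molecule) in both libraries together, as did 11665 genes in all.

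Single-cell RNASeq had been run on ileal epithelium of C57BL/6 mice aged 8 weeks, giving 2 libraries, 1 from wild-type (WT) mice and 1 from Tipe0-/- mice, in which Tnfaip8, the gene of the protein TIPE0, is deleted. The labels name no treatment, Cre or transgene for either group. Cells of 3 mice were pooled for each genotype, and no cell can be assigned to a mouse, so there is no biological replicate and no test between the genotypes. TIPE0 is known as an anti-apoptotic protein. The study, however, reports less TUNEL staining in ischemic Tipe0-/- mice, and better survival of Tipe0-/- enteroids under TNF and hypoxia. In healthy mice it saw no difference in activated caspase-3 staining between WT and Tipe0-/-. The question put to the data was how the Bcl2 family members are distributed over the cell types of the epithelium and between the genotypes.

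The family works through binding between its members. Anti-apoptotic proteins (Mcl1, Bcl2 and Bcl-xL, the product of Bcl2l1) hold the effectors Bax and Bak in check. The BH3-only proteins Bim (Bcl2l11), Bad, Bid and Puma (Bbc3) are set free or induced by stress and relieve that block, after which Bax and Bak permeabilize the outer mitochondrial membrane. In the small intestine, stem cells at the crypt base divide throughout life, and their absorptive progeny are shed at the villus tip after a few days.

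What joins the members is the BH3 helix, through which they bind each other. In the coding sequences of GENCODE vM21, 9 of the 10 members held exactly 1 match to the core of this helix, written as a leucine, any 3 residues, a glycine, alanine or serine, an aspartate, and then an aspartate, glutamate or glycine. The 9 codons from that leucine are shown 5′ to 3′ with the codons of the leucine, of the small residue and of the aspartate in capitals, because they are what the anti-apoptotic, effector and BH3-only members have in common. The pattern searched for requires these residues, so their presence in each stretch shown follows from the search. Bcl2l15 held no match and is named only.
Mcl1: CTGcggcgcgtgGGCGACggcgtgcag
Bcl2: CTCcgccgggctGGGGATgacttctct
Bcl2l1: CTGagagaggcaGGCGATgagtttgaa
Bax: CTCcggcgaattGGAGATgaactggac
Bak1: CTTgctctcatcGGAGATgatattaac
Bcl2l11: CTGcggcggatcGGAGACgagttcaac
Bad: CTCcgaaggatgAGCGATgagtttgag
Bid: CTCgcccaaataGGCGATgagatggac
Bbc3: CTGcggcggatgGCGGACgacctcaac

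In GRCm38 (mm10) these bases lie at chr3:95659436-95659462 in exon 1 of Mcl1, at chr1:106712575-106712601 in exon 1 of Bcl2 and at chr2:152829697-152829723 in exon 2 of Bcl2l1. Those of the effectors lie at chr7:45465997-45466023 in exon 3 of Bax and at chr17:27022531-27022557 in exon 4 of Bak1. Those of the BH3-only members lie at chr2:128147150-128147176 in exon 3 of Bcl2l11, at chr19:6950792-6950818 in exon 3 of Bad, at chr6:120897289-120897315 in exon 4 of Bid and at chr7:16313773-16313799 in exon 3 of Bbc3. Mcl1, Bcl2l11, Bad and Bbc3 are on the plus strand and the other 5 on the minus strand. Between 11 (Bcl2 and Bak1) and 22 (Bcl2l11 and Bbc3) of the 27 bases were identical in a pair of members, with a median of 15.5 over the 36 pairs. The libraries read the 3′ ends of transcripts, so the long and short forms of Mcl1, Bcl2l1 and Bcl2l11 could not be told apart. Gene models on the same strand overlap Bcl2, Bcl2l15, Bax and Bid, and how reads shared with them were counted is not given in the sources used here.

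The WT library held 3402 cells and 38127808 UMIs and the Tipe0-/- library 2006 cells and 23897126 UMIs. The median cell had 7760 and 7307.5 UMIs, and mitochondrial genes took 6.59% and 8.56% of the UMIs. Tnfaip8 itself was counted with 372 UMIs in WT and 57 in Tipe0-/-, or 9.76 and 2.39 per 1000000 UMIs (CPM). The level was lower in the library labelled as deleted, but UMIs remained. Since the deleted part is not given in the sources used here, a 3′ tag may lie outside it, which was not tested. The files share 9 cell barcodes, and the label of enterocytes covers a mixed epithelium, since clusters carried markers of stem, cycling, enterocyte, goblet, Paneth and tuft cells as well as 91 WT and 16 Tipe0-/- lymphocyte-like cells. The members together made up 0.0378% of the UMIs in each library, with 14402 UMIs in WT and 9032 in Tipe0-/-.

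Bak1, Mcl1 and Bax were the most abundant members in both libraries and Bbc3 the least. A UMI count is not scaled by transcript length, since each captured molecule gives 1 UMI at its 3′ end. In WT the members ran from Bak1 with 101 CPM over Mcl1 (82.1), Bax (78.7), Bad (44.8), Bcl2l15 (22.5), Bcl2l1 (17.2), Bid (10.7), Bcl2 (10.4) and Bcl2l11 (7.21) down to Bbc3 with 2.68 CPM. The first 5 places were the same in Tipe0-/-, where Bcl2 ranked 6 with 17.0 CPM and Bcl2l1 ranked 7 with 16.9 CPM. Bcl2 and Bid did not differ beyond counting error in WT, nor did Bcl2 and Bcl2l1 in Tipe0-/-, as their intervals overlapped.

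Between the whole libraries, 2 of the 10 members were at least 1.5-fold higher in Tipe0-/- and none was 1.5-fold lower. Bcl2 and Bcl2l11, an anti-apoptotic gene and the gene of one of its antagonists, were the 2. Over all genes with at least 50 UMIs, 8.62% were that much higher and 5.06% that much lower. The median log2 ratio of Tipe0-/- over WT was 0.05 for the members and 0.15 for all genes tested, so a gene at the median of all genes appears raised, and 4 of 10 members lay above that median. All ratios and intervals are on CPM and cover counting error only, not the variation between mice or between cells.

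Among the anti-apoptotic members, Mcl1, a short-lived protein that needs constant synthesis, was counted at 82.1 CPM in WT (95% Poisson interval 79.3 to 85.1) and 89.0 CPM in Tipe0-/- (85.2 to 92.8). Its log2 ratio of 0.12 (95% interval 0.03 to 0.19) lay below the median of all genes, and on a scale set by that median it was -0.04. Bcl2 was counted at 10.4 CPM in WT (9.44 to 11.5) and 17.0 CPM in Tipe0-/- (15.4 to 18.8). These intervals stood apart, and the log2 ratio was 0.71 (0.50 to 0.91). Bcl2l1 was counted at 17.2 CPM in WT (15.9 to 18.5) and 16.9 CPM in Tipe0-/- (15.3 to 18.6), which puts its log2 ratio at -0.03 (-0.21 to 0.15).

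Both effectors were slightly lower in Tipe0-/-. Bax was counted at 78.7 CPM in WT (75.9 to 81.5) and 69.6 CPM in Tipe0-/- (66.3 to 73.1), which puts its log2 ratio at -0.18 (-0.26 to -0.09). Bak1, which is held at the mitochondrial membrane, was counted at 101 CPM in WT (98.3 to 105) and 96.3 CPM in Tipe0-/- (92.4 to 100.3). Its log2 ratio was -0.08 (-0.15 to -0.00088), the upper end of which all but reached 0.

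The BH3-only members went in different directions. Bcl2l11, whose product Bim binds every anti-apoptotic member, was counted at 7.21 CPM in WT (6.39 to 8.12) and 11.3 CPM in Tipe0-/- (9.95 to 12.7), which puts its log2 ratio at 0.64 (0.39 to 0.89). Bad, whose product is kept inactive by Akt phosphorylation, was counted at 44.8 CPM in WT (42.7 to 47.0) and 36.2 CPM in Tipe0-/- (33.8 to 38.7), which puts its log2 ratio at -0.31 (-0.43 to -0.19). It was the member with the lowest ratio.

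Bid, which links death receptors to mitochondria once caspase-8 has cleaved it, was counted at 10.7 CPM in WT (9.66 to 11.8) and 10.5 CPM in Tipe0-/- (9.28 to 11.9). Its libraries overlapped, with a log2 ratio of -0.02 (-0.25 to 0.21). Bbc3, a p53 target, was counted with 102 UMIs in WT (2.68 CPM) and 91 in Tipe0-/- (3.81 CPM), and its log2 ratio of 0.51 (0.09 to 0.93) had the widest interval of the 10. Bcl2l15, a family member expressed mainly in the gut whose part in apoptosis is less settled, was counted at 22.5 CPM in WT (21.0 to 24.0) and 27.4 CPM in Tipe0-/- (25.3 to 29.5), which puts its log2 ratio at 0.29 (0.14 to 0.43).

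Relative to the median of all genes, the intervals of Bcl2 and Bcl2l11 lay above it and those of Bax, Bak1 and Bad below it. Without the Paneth-like cells, Bcl2 kept a log2 ratio of 0.70 while that of Bcl2l11 was 0.55, below 1.5-fold. Giving both libraries the same makeup of cell classes left Bcl2 at 0.64, Bcl2l11 at 0.60, Bax at -0.22 and Bad at -0.32. Each cell was also thinned to 3000 UMIs by a random draw, which gives cells equal weight and leaves fewer UMIs. In that draw Bcl2 was no longer past 1.5-fold (0.34), Bcl2l11 was (0.70) and Bad was past 1.5-fold lower (-0.78). By this count 1 member was higher and 1 lower. The share of all genes past 1.5-fold in that draw is not given. With the mean of each cell's own CPM, which weights cells equally without a draw, Bcl2 was at 0.60, Bcl2l11 at 0.66 and Bad at -0.45. Bad was thus short of 1.5-fold there. The thinned ratios carry no interval, and the part of the random draw in them was not tested. On the scale set by the median of all genes, Bcl2 was at 0.55 and Bcl2l11 at 0.49, both under 1.5-fold. A summed level cannot tell more cells with a transcript from more transcript per cell.

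**Figure D1:**
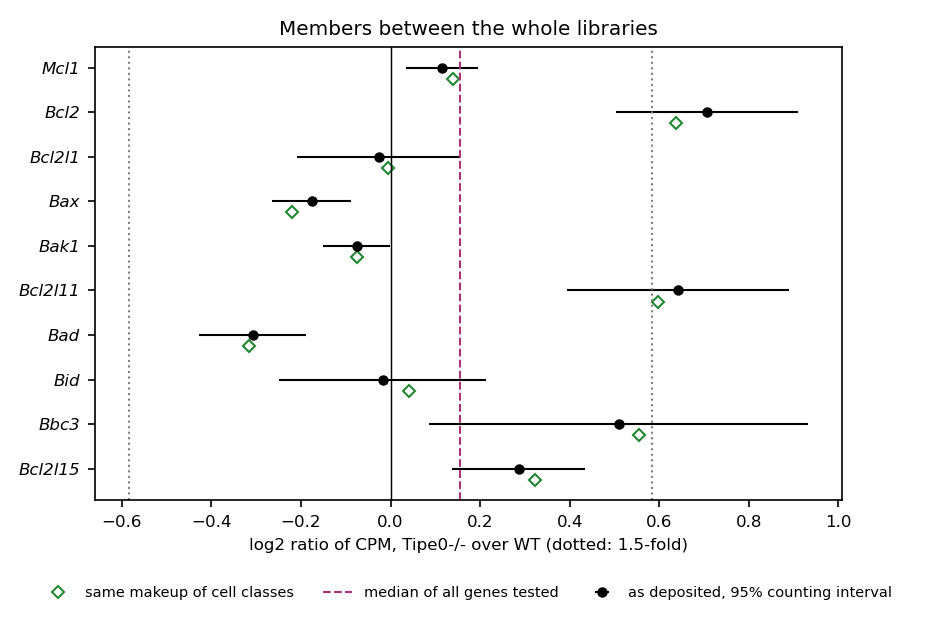
Log2 ratio of CPM, Tipe0-/- over WT, for the 10 members in the whole libraries (black, bars give 95% counting intervals), after equal class weights in the 2 libraries (open diamonds), the median of all 11665 genes tested (dashed) and 1.5-fold (dotted). Bcl2 (0.71) and Bcl2l11 (0.64) lie past the upper dotted line, and Bad (-0.31) is lowest.

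The ratio of anti-apoptotic to pro-apoptotic UMIs does not depend on how a library is scaled. In WT, Mcl1, Bcl2 and Bcl2l1 gave 4185 UMIs against 6869 of the effectors and 2492 of the BH3-only members, a ratio of 0.447 (0.431 to 0.464). In Tipe0-/- the counts were 2936, 3965 and 1477, a ratio of 0.540 (0.516 to 0.564). The ratio was therefore higher in Tipe0-/- by 0.27 on the log2 scale (95% interval of the odds ratio 0.19 to 0.36). Such a ratio cannot tell more anti-apoptotic UMIs from fewer pro-apoptotic ones. Of its anti-apoptotic members, Bcl2 alone (0.71) lay above the median of all genes (0.15). Of its pro-apoptotic ones, Bax (-0.18), Bak1 (-0.08), Bad (-0.31) and Bid (-0.02) lay below 0. Bcl2l11 (0.64) and Bbc3 (0.51) went the other way. No background from other genes is given for this ratio.

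By cell class the ratio was higher in Tipe0-/- in each of the 7 classes with over 1000000 UMIs in both libraries, and in 5 of them beyond counting error. In enterocyte-like cells it was 0.575 in WT and 0.722 in Tipe0-/-, a log2 difference of 0.33 (0.15 to 0.51). In goblet-like cells it was 0.398 and 0.498 (0.33, 0.17 to 0.48), and in cycling-like cells 0.347 and 0.417 (0.27, 0.07 to 0.46). Tuft-like cells (0.408 and 0.542) and the unnamed cluster led by Gsdmc3 (0.365 and 0.504) had differences of 0.41 (0.05 to 0.76) and 0.46 (0.08 to 0.84). Stem-like cells stood at 0.586 and 0.613, a difference of 0.06 (-0.22 to 0.35), and Paneth-like cells at 0.540 and 0.558 (0.05, -0.30 to 0.40). Among the 7 classes, stem-like, Paneth-like and enterocyte-like cells thus had the highest ratios in WT. Cycling-like cells had the lowest, with an interval that overlapped those of the cluster led by Gsdmc3, of tuft-like and of goblet-like cells. The interval of Paneth-like cells in WT also overlapped that of tuft-like cells. Outside the 7, the few lymphocyte-like cells had 0.785 in WT (0.603 to 1.02). The classes come from the same 2 libraries, so they do not replicate the difference.

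**Figure D2:**
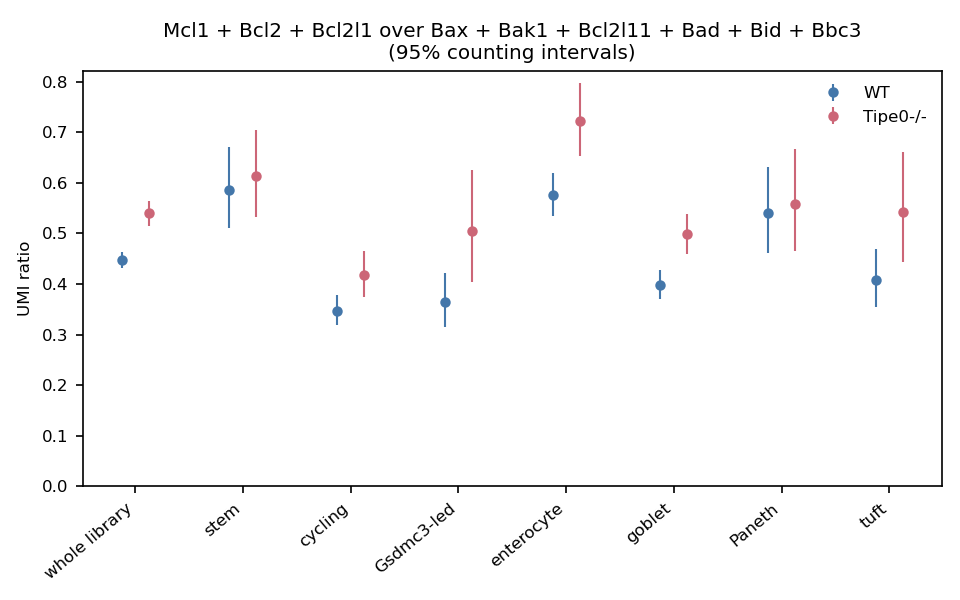
Ratio of the summed UMIs of Mcl1, Bcl2 and Bcl2l1 to those of Bax, Bak1, Bcl2l11, Bad, Bid and Bbc3, in the whole library and in each cell class, for WT (blue) and Tipe0-/- (red) with 95% counting intervals. Whole libraries stand at 0.447 and 0.540, and the stem-like and Paneth-like cells of both libraries lie close together.

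The difference between the whole libraries remained with each member left out. Leaving out each of the 9 genes in turn, the log2 difference of the ratio ran from 0.20 without Bcl2 to 0.40 without Mcl1, and the interval stayed above 0 in each case. With the same makeup of cell classes in both libraries it was 0.30.

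Cells were grouped by clustering and named by markers, with the members and the other apoptosis genes left out of the clustering. Of 12 clusters, 11 were named, 2 enterocyte-like, 3 goblet-like, 2 cycling-like and 1 each stem-like, Paneth-like, tuft-like and lymphocyte-like, and that led by Gsdmc3 stayed unnamed. The goblet-like cluster led by Zg16, with 122 WT and 63 Tipe0-/- cells, was mixed, with 7 of 9 goblet markers and also 11 enterocyte markers. Across the 7 larger classes, 9 of 10 members in WT and 7 of 10 in Tipe0-/- differed at least 4-fold between the highest and the lowest class, against 72.1% and 50.6% of all genes tested, so a range of this size was common. Much of it lay in the Paneth-like cells, in which the 20 most abundant genes, mostly defensins, took 68.6% of the UMIs in WT and 58.7% in Tipe0-/-, and which were the lowest class for 9 and 7 members and for 67.5% and 61.5% of all genes. With the 20 most abundant genes left out of each class total, 4 members in WT and 5 in Tipe0-/- had a 4-fold range, against 37.8% and 35.4% of all genes. Bcl2, Bcl2l11, Bcl2l15 and Bid were those 4 in WT and were among the 5 in Tipe0-/-. The other one, Bbc3, had 4.25-fold there but 3.61-fold with full totals.

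**Figure D3:**
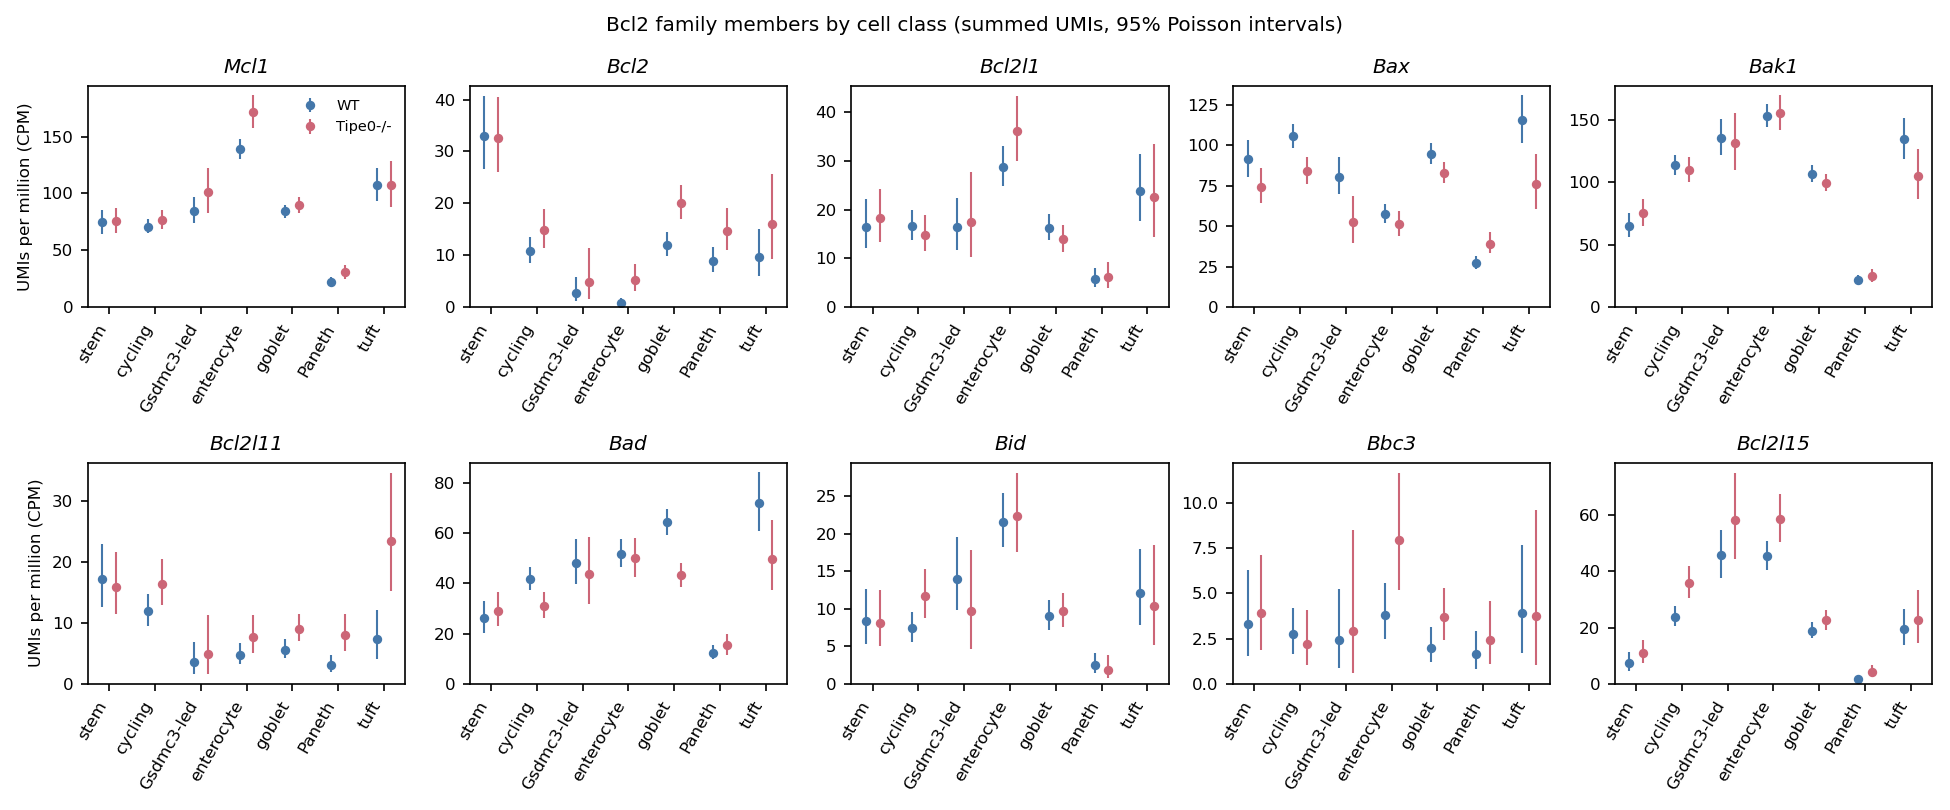
CPM of each member (one panel each, linear axes from 0) in 7 cell classes of WT (blue) and Tipe0-/- (red), from summed UMIs with 95% Poisson intervals. Bcl2 is highest in stem-like cells (33.0 and 32.6 CPM), Mcl1 and Bak1 in enterocyte-like cells, and Bcl2l15 in enterocyte-like cells and the cluster led by Gsdmc3.

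Among the 7 classes, Bcl2 was highest in stem-like cells, and lymphocyte-like cells had more. In stem-like cells, led by Lgr5 and Ascl2, it was counted at 33.0 CPM in WT (26.6 to 40.6) and 32.6 CPM in Tipe0-/- (26.0 to 40.4). The next class, goblet-like cells, had 11.99 and 20.1 CPM, and the distance from stem-like cells was beyond counting error in both libraries. Enterocyte-like cells had 5 UMIs in WT, or 0.731 CPM, and 17 in Tipe0-/-, or 5.22 CPM. With every cell thinned to 3000 UMIs, Bcl2 was found in 37 of 319 WT and 24 of 263 Tipe0-/- stem-like cells (11.6% and 9.13%), against 0.251% and 1.49% of enterocyte-like cells, which serve as the background here. Without thinning the shares were 23.2% and 27.0% in stem-like cells and 0.628% and 3.47% in enterocyte-like cells, at median depths of 6401 and 6790 UMIs in the former and 6438.5 and 5729 in the latter.

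Mcl1 ran the other way. Among the 7 classes it was highest in enterocyte-like cells with 139 CPM in WT (130 to 148) and 171 CPM in Tipe0-/- (157 to 186), and tuft-like cells came next with 107 CPM in each library. Outside the 7, the few lymphocyte-like cells had 158 and 106 CPM, on 75 and 9 UMIs. Stem-like cells had 74.5 and 75.8 CPM, and cycling-like cells 70.9 and 77.0 CPM. After thinning, Mcl1 was found in 34.5% of WT and 43.7% of Tipe0-/- enterocyte-like cells and in 19.7% and 20.5% of stem-like cells. Unthinned, these shares were 62.4%, 69.2%, 41.4% and 47.9%. Bcl2l1 had the same highest class, with 28.6 and 36.2 CPM in enterocyte-like cells against 16.5 and 18.3 CPM in stem-like cells. Tuft-like cells came next with 23.8 and 22.5 CPM of Bcl2l1, a distance beyond counting error in Tipe0-/- but not in WT.

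The effectors differed from each other. Bak1 was highest in enterocyte-like cells, at 153 CPM in WT and 155 CPM in Tipe0-/-, not beyond counting error from the cluster led by Gsdmc3 (136 and 131 CPM), and lower in stem-like cells, at 65.3 and 75.0 CPM. Bax was lower in enterocyte-like cells, at 57.6 and 51.3 CPM, than in stem-like cells, at 91.4 and 74.6 CPM. Among the larger classes, Bax was highest in tuft-like cells of WT, with 116 CPM, and in cycling-like cells of Tipe0-/-, with 84.3 CPM. Neither stood beyond counting error from the larger class after it. Outside these classes, the few lymphocyte-like cells had 122 CPM of Bax in WT and 117 CPM in Tipe0-/-, on 58 and 10 UMIs.

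Of the BH3-only members, Bcl2l11 had its highest values among the 7 classes of WT in stem-like (17.2 CPM) and cycling-like cells (11.9 CPM). These 2 did not differ beyond counting error. In Tipe0-/-, tuft-like cells (23.5), cycling-like cells (16.4) and stem-like cells (15.9) did not differ beyond counting error from each other in that order. Lymphocyte-like cells had 23.2 CPM of Bcl2l11 in WT, on 11 UMIs, and 0 UMIs in Tipe0-/-. Bid was, among the 7 classes, highest in enterocyte-like cells, at 21.6 and 22.4 CPM, in both cases beyond counting error from the next class, while lymphocyte-like cells had 40.1 and 35.2 CPM on 19 and 3 UMIs. Bad was highest in tuft-like and goblet-like cells of WT, with 72.0 and 64.4 CPM, and lowest outside the Paneth-like cells in stem-like cells, with 26.1 CPM in WT and 29.1 CPM in Tipe0-/-. Bbc3 stayed between 1.64 and 7.98 CPM in all 7 classes of both libraries. Bcl2l15 stood at 45.5 and 58.6 CPM in enterocyte-like cells and at 45.7 and 58.4 CPM in the cluster led by Gsdmc3, while stem-like cells had 7.34 and 10.9 CPM.

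The clusters divide some of these classes further. They are set here in the order stem-like (Lgr5), cycling-like led by the replication genes Dtl and Mcm6, cycling-like led by the mitosis genes Ube2c and Cdc20, the cluster led by Gsdmc3, enterocyte-like led by Arg2 and Fabp6, and enterocyte-like led by Apoa1 and Apoa4. This order is assumed, from textbook markers for the named clusters, and is not a measured position. The cluster led by Gsdmc3 was unnamed, with 1 enterocyte marker found. The 2 cycling-like clusters differ in the phase of the cell cycle, and their order need not be a step in differentiation. In WT, Bcl2 ran through 33.0, 21.5, 6.09, 2.81, 0.316 and 1.09 CPM. In Tipe0-/- it ran through 32.6, 20.4, 11.7, 4.86, 3.18 and 7.13 CPM, and the intervals of the ratio took in 0 in the stem-like cluster and in those led by Dtl and Gsdmc3, and lay above 0 in those led by Ube2c (0.94, 0.20 to 1.69), Arg2 and Apoa4. A difference between these clusters was not tested. The last 3 of these values rest on 7, 1 and 4 UMIs in WT and 5, 5 and 12 in Tipe0-/-.

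Of these clusters, Bcl2l11 had its highest level in that led by Dtl, at 21.9 CPM in WT and 31.5 CPM in Tipe0-/-. In WT its interval there (16.2 to 29.0) overlapped that of the stem-like cluster (12.7 to 22.9). In Tipe0-/- these intervals stood apart (23.4 to 41.4 and 11.4 to 21.6). Bcl2l11 was under 10 CPM from the mitotic cluster onwards in both libraries. Bax ran from 91.4 in the stem-like cluster over 114 in that led by Dtl to 43.0 CPM in that led by Apoa4 in WT, and from 74.6 over 88.3 to 46.9 CPM in Tipe0-/-. Mcl1 ran from 74.5 to 159 CPM in WT and from 75.8 to 215 CPM in Tipe0-/-, with its highest value in the cluster led by Apoa4 in both. Bak1 ran from 65.3 to 160 CPM in WT and from 75.0 to 166 CPM in Tipe0-/-, also highest in that cluster. In the cluster led by Ube2c, Bak1 was already at 123 and 128 CPM, where Mcl1 had 72.7 and 83.4 CPM.

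Bcl2l15 did not have its highest value in the cluster led by Apoa4. It stood at 7.34 CPM in the stem-like cluster, 45.7 CPM in that led by Gsdmc3, 54.3 CPM in that led by Arg2 and 37.8 CPM in that led by Apoa4 in WT, and at 10.9, 58.4, 62.9 and 54.6 CPM in Tipe0-/-. The intervals of the clusters led by Arg2 and Apoa4 stood apart in WT (46.5 to 63.1 and 31.8 to 44.6 CPM), those led by Gsdmc3 and Arg2 overlapped, and in Tipe0-/- all 3 overlapped. A clustering on 2000 variable genes split off 70 WT and 31 Tipe0-/- cells led by Apoa4, Clca4a and Ada, genes of the villus tip. There Bcl2l15 had 4 UMIs in WT (9.67 CPM, 2.64 to 24.8) and 5 in Tipe0-/- (29.4 CPM, 9.53 to 68.5), whereas Mcl1 had 239 and 252 CPM. In WT the interval of Bcl2l15 lay below that of the enterocyte-like cluster led by Cubn (44.0 CPM, 36.9 to 51.9), and in Tipe0-/- it overlapped with it (59.4 CPM, 47.7 to 73.1).

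**Figure D4:**
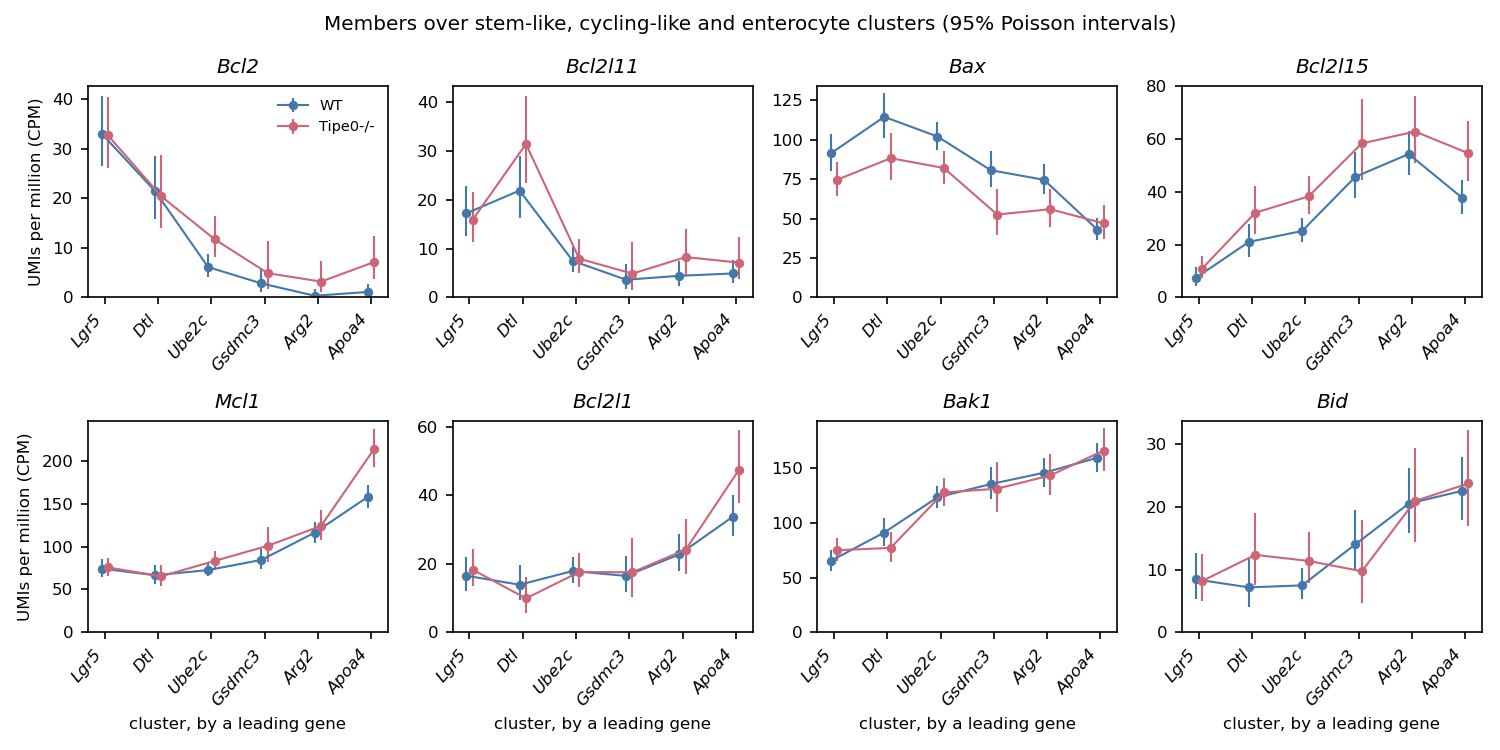
CPM of 8 members over 6 clusters, each named by a leading gene, for WT (blue) and Tipe0-/- (red) with 95% Poisson intervals. The order from stem-like (Lgr5) to enterocyte-like (Apoa4) is assumed, not measured, and the cluster led by Gsdmc3 is unnamed. Bcl2 runs from 33.0 to 1.09 CPM in WT and from 32.6 to 7.13 CPM in Tipe0-/-, Mcl1 runs from 74.5 to 159 and from 75.8 to 215 CPM, and Bcl2l15 has its highest value in the cluster led by Arg2, within counting error of that led by Gsdmc3.

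That clustering also gave cells that the first one had not separated. The enteroendocrine-like cluster, led by Gcg, Chgb and Pyy, held 39 WT and 25 Tipe0-/- cells. Its Bcl2 level was 32.0 CPM in WT (17.9 to 52.7) and 23.7 CPM in Tipe0-/- (11.4 to 43.7), close to that of stem-like cells, on 15 and 10 UMIs. Among lymphocyte-like cells of WT, which this clustering drew more widely, the 69 led by Gzma had 65.1 CPM of Bcl2 (42.9 to 94.8) and 4.83 CPM of Bid (0.584 to 17.4), whereas the 42 led by Pou2af1 and Ms4a1 had 4.49 CPM of Bcl2 (0.114 to 25.0) and 71.9 CPM of Bid (41.1 to 117). In Tipe0-/- these clusters held 14 and 8 cells, with 9 and 4 UMIs of Bcl2.

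In stem-like cells, none of the 7 members with at least 50 UMIs was 1.5-fold higher or lower in Tipe0-/-, against 9.65% of all genes tested in that class, and Bcl2 had a log2 ratio of -0.02 (-0.46 to 0.43). Bax was the only one of the 7 whose interval left out 0, with -0.29 (-0.57 to -0.01). A difference between stem-like and other cells was not tested.

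In goblet-like cells, 2 of 9 members were 1.5-fold higher, Bcl2 (11.99 and 20.1 CPM, log2 ratio 0.74, 0.38 to 1.10) and Bcl2l11 (5.57 and 9.04 CPM, 0.70, 0.16 to 1.24), against 9.62% of genes past 1.5-fold either way. Muc2, Tff3 and Fcgbp were among the leading genes of the clusters led by Retnlb and by Zg16. Dll1 and Spdef were among those of the cluster led by Ccl9 and Creb3l1. The latter cluster held 225 of the 267 Bcl2 UMIs and 111 of the 122 Bcl2l11 UMIs of this class. Within it, Bcl2 was at 0.64 (0.25 to 1.04). Bcl2l11 was at 0.53 (-0.03 to 1.11) there, short of 1.5-fold. That cluster held 413 of 734 WT and 317 of 510 Tipe0-/- goblet-like cells, and the part of this makeup was not tested. Bad was at 64.4 and 43.2 CPM, a log2 ratio of -0.57 (-0.77 to -0.38). It was -0.42 in the goblet-like cluster led by Ccl9 and Creb3l1, -0.75 in that led by Retnlb and -0.97 in the mixed one led by Zg16. Bcl2 in goblet-like cells was at 1.16 with clusters at a resolution of 1.2. In cycling-like cells, 2 of 9 passed, Bcl2l15 (23.9 and 36.1 CPM, 0.59, 0.28 to 0.91) and Bid (7.37 and 11.7 CPM, 0.67, 0.09 to 1.24), against 9.63% of genes. The median of all genes in these 2 classes was 0.09 and 0.07.

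In enterocyte-like cells, 2 of 9 members passed, against 16.9% of genes and at a median of all genes of 0.15. They were Bbc3, with 26 UMIs in each library (3.80 and 7.98 CPM, 1.07, 0.23 to 1.91), and Bcl2l11 (4.68 and 7.67 CPM, 0.72), whose interval of -0.10 to 1.51 took in 0. Mcl1 had a log2 ratio of 0.30 (0.15 to 0.45), and in the cluster led by Apoa4 0.44 (0.25 to 0.63), where the median of all genes was 0.14. The cells of this class were not alike in the 2 libraries. Clustering at a resolution of 1.2 put 366 WT and 67 Tipe0-/- cells into an enterocyte-like cluster led by U90926 and Upp1 and 78 and 159 into one led by Apoa4, Clca4a and Ada, and with no genes set aside from the clustering, the clusters led by U90926 and by Apoa4 held 371 and 10 cells and 49 and 208 cells. Ada itself was at 135 CPM in WT and 276 CPM in Tipe0-/- in the cluster led by Apoa1 and Apoa4, and the part of this in the values of Mcl1 and the other members was not tested. Beside this, the immediate early and heat shock genes that respond to cell dissociation summed to 407 CPM in WT and 540 CPM in Tipe0-/- enterocyte-like cells, against 248 and 222 CPM in stem-like cells, and their part in the result was not tested. Bcl2, with 22 UMIs in all, was below the minimum in this class, at 0.731 and 5.22 CPM (log2 ratio 2.74, 1.34 to 4.63).

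In tuft-like cells, 1 of 6 members passed, Bax (116 and 76.1 CPM, -0.60, -0.99 to -0.24), against 15.4% of genes. Bcl2l11 was under the minimum there with 15 and 25 UMIs (7.29 and 23.5 CPM, 1.67, 0.71 to 2.72). The 51 Tipe0-/- tuft-like cells had a median of 17650 UMIs and the 154 WT cells 12011.5, and after thinning 2 of the WT and 0 of the Tipe0-/- cells held a UMI of it, which allows a share of up to 5.88%, so no order is read from this gene. In the cluster led by Gsdmc3, 1 of 6 passed, again Bax (80.6 and 52.5 CPM, -0.61, -1.08 to -0.18), against 15.5% of genes.

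In Paneth-like cells, 2 of 7 members passed, Bcl2 (8.95 and 14.7 CPM, 0.72, 0.16 to 1.27) and Bcl2l11 (3.13 and 8.03 CPM, 1.35, 0.51 to 2.24), but so did 38.1% of genes, and the median of all genes was 0.48. Bax was higher there, at 27.3 and 39.3 CPM (0.53, 0.20 to 0.85), about as far from 0 as the median gene. Without the 20 most abundant genes in the class totals its log2 ratio was 0.13.

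**Figure D5:**
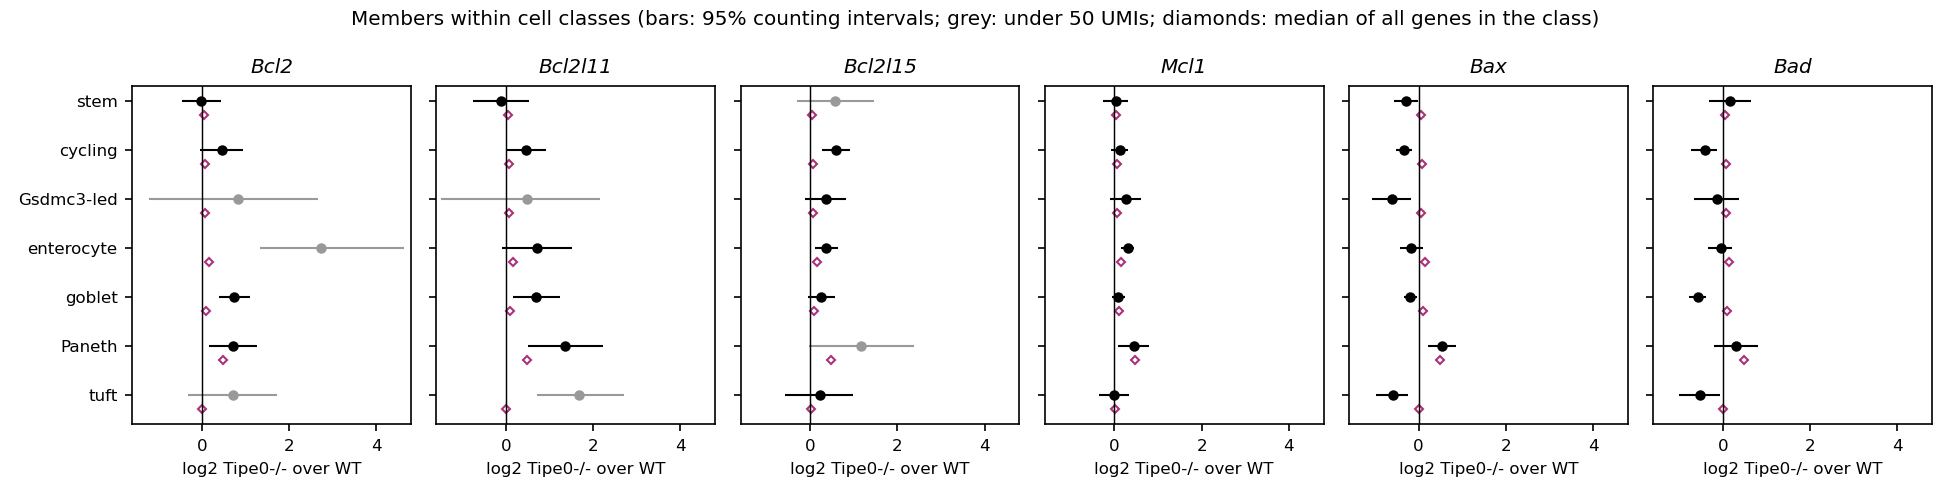
Log2 ratio of CPM, Tipe0-/- over WT, of 6 members in 7 cell classes, with 95% counting intervals, values on under 50 UMIs in grey and the median of all genes of the class as open diamonds. Bcl2 lies at -0.02 in stem-like cells and at 0.74 in goblet-like cells, and Bax lies below 0 in every class except the Paneth-like cells.

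Lymphocyte-like cells, 2.67% of WT and 0.798% of Tipe0-/- cells, had Bcl2 at 48.5 and 106 CPM on 23 and 9 UMIs. The 15 lymphocyte markers, none at 0 in a whole library, summed to 154 CPM in WT and 41.3 CPM in Tipe0-/-, and to between 34.1 and 197 CPM in the other classes of WT against 6.96 to 148 CPM in those of Tipe0-/-, where 1 to 7 of the 15 were at 0 in a class. Without the lymphocyte-like cells, the log2 ratio of Bcl2 was 0.75 and that of Bcl2l11 0.69.

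The other members of the family gave 11 genes with at least 50 UMIs of 16 listed, of which 1 was 1.5-fold higher and 3 were lower, at a median log2 ratio of 0.04. Over all genes with at least 50 UMIs, 8.62% were that much higher and 5.06% that much lower. Bcl2l2, which encodes the anti-apoptotic Bcl-w, was counted at 15.0 CPM in WT and 24.8 CPM in Tipe0-/-, a log2 ratio of 0.72 (0.56 to 0.89). It was higher in all 7 classes, stem-like cells included (12.8 and 23.7 CPM, 0.88, 0.26 to 1.53), and the interval took in 0 in tuft-like cells alone. In Paneth-like cells, however, its interval (0.67, 0.06 to 1.27) also took in the median of all genes there, 0.48, and 38.1% of genes were past 1.5-fold. Bik (-0.66), Bnip3 (-0.80) and Bcl2a1b (-1.59) were lower, on 103, 205 and 54 UMIs. Reads of Bcl2a1b can be split with its near-identical copies, and the gene is known from blood cells. The 2 most abundant genes of the list were Bnip3l, a mitophagy receptor, at 54.6 and 56.6 CPM, and Bcl2l2. Pmaip1 (Noxa), which binds Mcl1, was at 35.2 CPM in WT and 54.3 CPM in Tipe0-/- enterocyte-like cells (0.63, 0.34 to 0.91).

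Downstream of mitochondria, the 14 genes of the apoptosome, the caspases and the nucleases had a median log2 ratio of 0.09. Cycs (cytochrome c), the most abundant of them, was at 632 and 476 CPM (-0.41, -0.44 to -0.38). Of the 8 inhibitor of apoptosis genes 0 passed 1.5-fold, against 8.62% of all genes higher and 5.06% lower. Their median was 0.19, with Xiap at 64.8 and 74.7 CPM and Birc6 at 56.5 and 66.9 CPM.

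Of 11 tested death receptor genes, 1 was higher and 0 lower, at a median of -0.06, and only 1 lay above the median of all genes. Beside this and the lists that follow stand the shares of all genes, 8.62% higher and 5.06% lower. Tnfrsf10b, a TRAIL receptor, was the one higher, on 71 and 75 UMIs (0.75, 0.27 to 1.24), and Cflar (41.4 and 40.8 CPM) and Tnfrsf1a (34.7 and 33.6 CPM) were the most abundant. Of 12 tested genes of p53 and its targets 0 passed, at a median of 0.07, and Cdkn1a, the cell cycle inhibitor p21, was at 119 and 90.3 CPM and Perp at 97.0 and 89.0 CPM. The 5 genes of Mcl1 turnover had a median of 0.24 with 0 past 1.5-fold, among them Usp9x, the deubiquitinase that stabilizes Mcl1 (57.5 and 75.5 CPM), and Huwe1, its ubiquitin ligase (57.8 and 69.3 CPM). The 3 outer membrane channels, Vdac2 (271 and 255 CPM) and Vdac1 (169 and 164 CPM) among them, had a median of -0.04. Of 10 immediate early and heat shock genes tested, Egr1 was higher (log2 ratio 0.65) and Atf3 lower (-0.84), at a median of 0.28, with Ier2 (43.2 and 53.3 CPM) and Fos (38.0 and 46.3 CPM) the most abundant.

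The genes whose levels over the 7 classes of both libraries were most like those of a member, by Pearson's r of log2(CPM + 1) over these 14 profiles among 7958 genes with at least 500 UMIs, are given as a description. The profiles share their libraries and the low levels of Paneth-like cells. For Bcl2 they were Rnf43 (r = 0.973), Serf1 (0.968) and Slc12a2 (0.966). For Mcl1 they were Ctnnd1 (0.989), Vti1b (0.986) and Actr3 (0.984), and for Bcl2l1 Zc3h3 (0.972), Arf3 (0.971) and Clec2d (0.967).

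Bak1 was closest to Cox11 (0.993), Chmp2a (0.991) and Vdac2 (0.990), and Bax to Stub1 (0.975), Slc35a4 (0.973) and Rnf187 (0.968). Bcl2l15 was closest to Pcsk5 (0.989), Pank3 (0.987) and Pof1b (0.986). Bcl2l11 had the lowest values, with Zfp865 (0.914), Zfp282 (0.911) and Mid1 (0.910). Bad was closest to Ier3ip1 (0.970), Slc4a2 (0.968) and Ykt6 (0.961), and Bid to Zcchc6 (0.977), Chkb (0.976) and Fibp (0.973).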

How the data were processed

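Ileal crypts and villi of 3 pooled mice per genotype were dissociated with EDTA and enzymes, which the labels and the methods of the study name differently, and captured on a 10x Genomics 3′ platform. The authors deposited raw UMI counts per gene and cell for each library, made with Cell Ranger on mm10 after its cell calling. The values are counts with no normalization, and they are those of the cells kept by the authors, the smallest of which had 3247 UMIs in WT and 3562 in Tipe0-/-. Every barcode was used. Cell Ranger counts reads on the sense strand of a gene only.

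UMIs were summed per library, class and cluster and divided by the summed total (CPM). In log2 ratios, always Tipe0-/- over WT, 0.5 UMIs were added to both sums. Levels carry exact Poisson intervals, ratios exact binomial ones, shares Clopper-Pearson ones and the anti-apoptotic to pro-apoptotic change that of the conditional odds ratio, all at 95%. These cover counting error only. With 1 library per genotype no test was made. Genes with at least 50 UMIs were tested against 1.5-fold, and classes with at least 1000000 UMIs in both libraries were compared. A count of 0 was read as allowing 3.

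Clusters were made in Seurat 5.3.0 (R 4.3.3) on log-normalized values, with 582 variable genes, 524 of them used after the apoptosis genes listed here and the genes of the study's own genotype comparison were set aside, 14 components and resolution 0.8. A class name needed 3 markers, each in 10% of the cells and 1.5-fold above the other cells. Scrublet in Scanpy 1.11.5 called 15 and 3 doublets, too few to have worked, so the 5% of cells with the highest scores were left out as an alternative. Sequences were read from GRCm38 with GENCODE vM21. The steps were tested on simulated data.

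Named were all members, the genes of each list past 1.5-fold and the 2 most abundant of each list, and the 3 genes most like each member with at least 500 UMIs. Results of some listed genes are not reported here. Pmaip1, Bcl2l2 by class and the smaller clusters were singled out after their values were seen. The members and lists were chosen with earlier results of these data known.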

Additional observations from a re-analysis of the deposited data

Results flagged for a closer look

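On CPM of the full class totals, Bax differed in direction between cell classes. Its log2 ratio of Tipe0-/- over WT was 0.53 in Paneth-like cells, with the whole interval above 0, and -0.29 in stem-like, -0.33 in cycling-like, -0.20 in goblet-like and -0.60 in tuft-like cells and -0.61 in the cluster led by Gsdmc3, with the whole interval below 0. The difference between the classes was not tested, since each genotype has 1 library. The median log2 ratio of all genes was 0.48 in Paneth-like cells and between 0.01 and 0.09 in the other 5 classes.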

How the results depend on the processing

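Each genotype had 1 library, so no replicate could be left out, and no paired analysis was possible because the groups share no replicate pairs. The count of 2 members past 1.5-fold was 1 with totals without mitochondrial and the 20 most abundant genes, 1 without Paneth-like cells (chosen after seeing the data), 0 on the scale set by the median ratio of all genes and 0 at a fold of 2. After thinning by a random draw it was 1 higher (Bcl2l11) and 1 lower (Bad). On that median scale the members' median log2 ratio was -0.10, Mcl1 reversed to -0.039, the death receptor list was at -0.22 and the outer membrane channels at -0.20. Without Mcl1, the anti-apoptotic to pro-apoptotic ratio was 0.112 in WT and 0.149 in Tipe0-/-, and its log2 difference 0.40. The count of members with a 4-fold range over classes was 4 in WT without the 20 most abundant genes, against 37.8% of all genes. That setting was chosen after seeing the data. At a fold of 8 the count was 3 in WT and 2 in Tipe0-/-. No share of all genes is given for the fold of 8 or for the altered counts between the libraries. These counts therefore describe the processing and are not read as results about the members. Of the other values of the comparisons, 69 moved by less than their counting interval, or by under 1.5 times for a count. Of the values of single members, 449 moved by less than their counting interval, 21 moved by more and the 1 of Mcl1 reversed. The cause of these moves was not tested. Depth limits Bbc3 most, with 193 UMIs in all, and Bcl2 in enterocyte-like cells.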
